A study of Mus musculus with 8 samples.

Results

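The MCM helicase and replication licensing genes were followed in RNA-seq data of mouse sympathetic ganglia in which *Isl1*, a LIM-homeodomain transcription factor gene, had been deleted or reduced. The 10 genes were taken by symbol from tables of 13506 genes at E11.5 and 13413 genes at E14.5, with no cutoff on a measured value. Earlier results of these data were known when they were chosen, so the choice was not blind. All 10 were present in both tables. They are *Mcm2*, *Mcm3*, *Mcm4*, *Mcm5*, *Mcm6*, *Mcm7*, *Mcm10*, *Cdc6*, *Cdt1*, and *Gmnn*.

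At E11.5, *Isl1* CKO ganglia (*Wnt1-Cre;Isl1* f/f, labelled Isl1-/-) were compared with control ganglia (*Wnt1-Cre;Isl1* +/+). Both carried the Wnt1-Cre transgene and a Rosa26-tdTomato reporter, and tissue that did not fluoresce was cleared away at dissection. Wnt1-Cre recombines in the whole neural crest lineage, so *Isl1* was deleted in glial precursors and sensory neurons as well as in sympathetic neurons. At E14.5, ganglia of *Isl1* hypomorphic embryos (f-neo/f-neo, labelled as an *Isl1* mutation), an allele not restricted to the neural crest, were compared with wildtype ganglia. Each group had 2 libraries, each from the ganglia of about 10 embryos pooled by genotype, and neither strain nor sex is given in the sources used here. The 2 libraries of a genotype had been combined by the authors into 1 FPKM value (fragments scaled to transcript length and to the number of mapped fragments). The spread between libraries and the read depth cannot be read from these values, so no difference below was tested or checked against replicates. P-values of the authors' own comparison stand in the same tables and were not used.

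Before a cell copies its DNA, each origin of replication is licensed in G1 phase. The origin recognition complex and CDC6 bind the origin, and CDT1 brings in the MCM2-7 hexamer, a ring of 6 related subunits that later unwinds the double helix. Geminin, encoded by *Gmnn*, holds CDT1 inactive from S phase to mitosis so that no origin is licensed again, and MCM10 helps to convert the loaded ring into a working helicase. These genes are expressed in cycling cells and are switched off as cells leave the cell cycle. Sympathetic neuroblasts are unusual among neuronal precursors in that they divide after they have begun to express noradrenergic genes.

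The E2F transcription factors are known to activate many of these genes at the G1/S transition, so the promoters were searched for E2F words. RefSeq promoter windows of the GRCm38.p6 build, from 250 bases before to 50 bases after a transcription start, matched 8 of the 10 genes, with 2 windows for *Mcm7*. No window was matched for *Mcm4* and *Gmnn*. The words searched, on both strands, were TTTCCCGC, TTTCGCGC, TTTGCCGC, and TTTGGCGC. They were found for 6 of the 8 matched genes (*Cdc6*, *Cdt1*, *Mcm3*, *Mcm5*, *Mcm6*, and *Mcm7*), against 2.26% of all 32851 windows and 3.84% of the 12657 windows of genes in the E11.5 table. *Mcm2* and *Mcm10* had none of these words in their windows. The backgrounds here and below count windows and not genes. The 8 genes had 9 windows, and the second window of *Mcm7* held none of the E2F words. A match of letters is a description and not a binding site. The stretches that held a match are shown 5′ to 3′ on the strand of the gene, with the matched bases in capitals. They are printed because most of the matched genes held a word, but no single word was common to all of these genes.
Mcm6, chr1:128359795-128359824, minus strand: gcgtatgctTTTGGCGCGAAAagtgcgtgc
Mcm6, chr1:128359734-128359763, minus strand: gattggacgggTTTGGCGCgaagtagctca
Mcm5, chr8:75109347-75109376, plus strand: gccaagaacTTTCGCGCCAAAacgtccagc
Mcm7, chr5:138172030-138172059, minus strand: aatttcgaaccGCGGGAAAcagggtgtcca
Mcm7, chr5:138171849-138171878, minus strand: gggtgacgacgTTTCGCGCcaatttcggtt
Mcm3, chr1:20820275-20820304, minus strand: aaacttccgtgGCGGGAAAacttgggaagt
Mcm3, chr1:20820263-20820292, minus strand: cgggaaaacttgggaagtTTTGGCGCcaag
Cdc6, chr11:98908002-98908031, plus strand: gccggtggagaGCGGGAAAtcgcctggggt
Cdt1, chr8:122568035-122568064, plus strand: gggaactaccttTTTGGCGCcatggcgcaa

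In the first *Mcm6* stretch and in the *Mcm5* stretch, 2 words on opposite strands overlapped, which gave a longer run of capitals. The matches of *Mcm6* began 110 and 47 bases before the start, that of *Mcm5* 153 bases before it, and that of *Cdc6* 138 bases before it. The matches of *Cdt1* and *Mcm3* lay after the start, and *Mcm7* had a match on either side of it. The shorter word CCAAT, on either strand, was held by 6 of the 8 genes (all but *Cdc6* and *Cdt1*) against 37.4% of all windows. The word TTTGAA, the core of the cell cycle homology region of late cell cycle genes, was held by *Mcm2* alone among the 8, against 17.9% of all windows.

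Some facts of the tables bear on each value. *Isl1* itself was at 133 FPKM in controls against 40.0 in CKO ganglia, and at 162 in wildtype against 83.1 in hypomorphic ganglia. Markers of sympathetic neurons (*Hand2*, *Th*, *Dbh*) were abundant in all 4 columns, at 145 FPKM or more. Erythroid markers took 2.29% of the FPKM sum in control and 11.2% in CKO ganglia, against 1.26% and 1.55% at E14.5. The embryonic globin gene *Hbb-y* was listed at 0 in CKO ganglia beside 7552 FPKM in control ganglia, while 10 of the 11 erythroid markers in that table were at least 1.5-fold higher in CKO ganglia. The FPKM sums at E11.5, 476258 in control and 617124 in CKO ganglia, differed by more than the sums of the erythroid markers, 10885 and 69058 FPKM. Changes are therefore also given relative to the median of all genes.

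The MCM2-7 genes were abundant at E11.5. In control ganglia *Mcm6* (chr1:130228168-130256233 in mm9) had 145 FPKM and *Mcm7* (chr5:138605811-138613650) 140 FPKM, above 96.3% and 96.2% of all genes or equal to them. *Mcm2* (chr6:88833469-88848774) followed with 97.8 FPKM, *Mcm5* (chr8:77633427-77652338) with 90.8, *Mcm3* (chr1:20793055-20810359) with 83.9, and *Mcm4* (chr16:15623990-15637493) with 76.1. The other 4 genes were lower than every helicase subunit. *Gmnn* (chr13:24843714-24853792) had 49.2 FPKM, *Cdt1* (chr8:125091915-125097028) 41.9, *Mcm10* (chr2:4910760-4933837) 24.3, and *Cdc6* (chr11:98769115-98785254) 14.9. FPKM is scaled to transcript length, so these levels can be set side by side, but with 1 value per genotype it cannot be said which neighbours in the order differ beyond their spread.

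**Figure D1:**
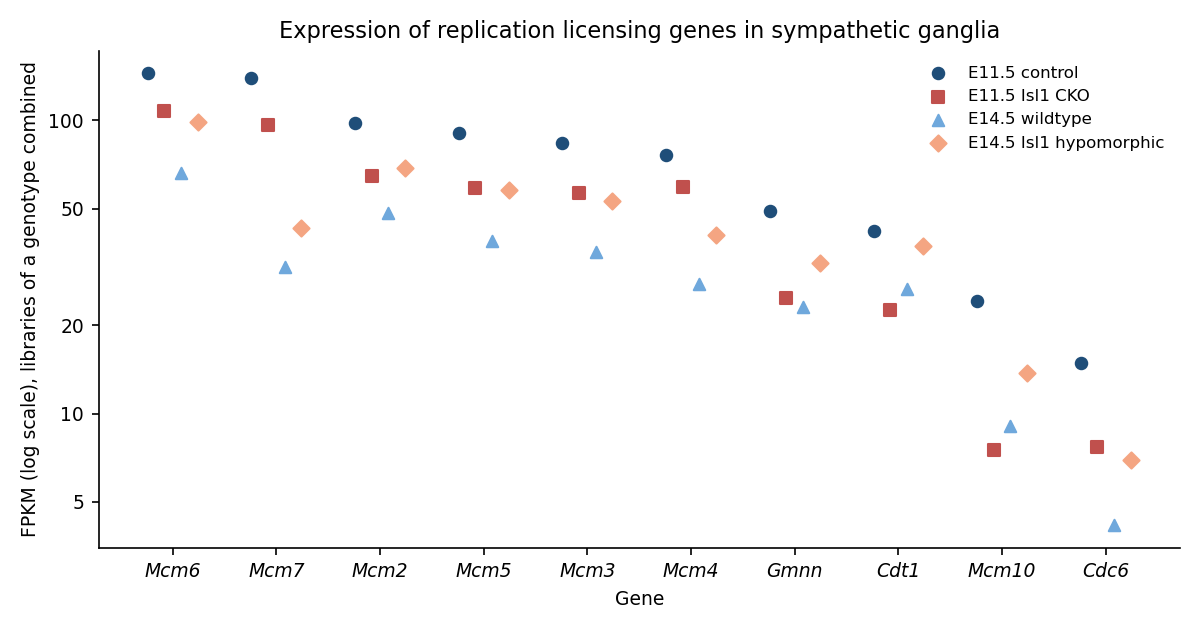
FPKM (log scale) of the 10 genes in E11.5 control, E11.5 *Isl1* CKO, E14.5 wildtype and E14.5 *Isl1* hypomorphic ganglia, with 1 point per gene and genotype in which the authors combined 2 libraries. Control ganglia of E11.5 had the highest value of each gene, and *Mcm10* and *Cdc6* had the lowest levels of the 10 in every column.

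All 10 genes were lower in *Isl1* CKO than in control ganglia at E11.5, and the genes outside the hexamer were lower by more than its subunits. On the log2 scale of FPKM + 0.1, the 6 subunits had ratios between -0.63 and -0.35 (median -0.55), and *Cdt1*, *Cdc6*, *Gmnn*, and *Mcm10* had ratios between -1.68 and -0.89 (median -0.96). The median of all 13504 genes with a symbol of their own was 0.05, with quartiles at -0.31 and 0.45. In bulk ganglia, fewer cycling cells and less RNA per cycling cell cannot be told apart.

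*Mcm10* had the steepest difference of the 10. Its level was 24.3 FPKM in controls and 7.53 in the CKO, a 3.20-fold lower value (log2 ratio -1.68), with 1.64% of all genes at or below this ratio. In CKO ganglia it became the least abundant of the 10 genes, just under *Cdc6*. None of 73 other genes on 7 lists of replication and licensing had a lower ratio, and the nearest was *Clspn*, which encodes the checkpoint mediator claspin (20.4 and 7.15 FPKM, log2 ratio -1.50).

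The loading factors and their inhibitor were lower by similar amounts. *Cdc6*, whose product recruits CDT1 and the hexamer to origins, was at 14.9 FPKM in controls and 7.68 in the CKO (log2 ratio -0.95). *Cdt1* had 41.9 and 22.6 FPKM (-0.89), and *Gmnn* had 49.2 and 24.9 FPKM (-0.98). The ratio of the geminin transcript to that of its target CDT1 was 1.17 in control and 1.10 in CKO ganglia.

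Among the helicase subunits, *Mcm5* was at 90.8 FPKM in controls and 58.8 in the CKO (log2 ratio -0.63), and *Mcm2* had 97.8 and 64.5 (-0.60). These were the only subunits at least 1.5-fold lower. *Mcm3* had 83.9 and 56.8 FPKM (-0.56), *Mcm7* 140 and 96.3 (-0.54), *Mcm6* 145 and 107 (-0.43), and *Mcm4* 76.1 and 59.5 (-0.35). *Mcm4* was thus the least affected subunit, and it moved from the lowest of the 6 in control ganglia to the fourth place in CKO ganglia. In the steepness of the difference the hexamer and the other 4 genes did not overlap, but the latter were also the 4 least abundant genes, so role and level cannot be told apart here.

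In all, 6 of the 10 genes were at least 1.5-fold lower in CKO ganglia and 0 were at least 1.5-fold higher, beside 12.9% and 18.9% of all genes. The median of the 10 genes was -0.61, which is -0.66 relative to the median of all genes. Relative to that median, 8 of the 10 were at least 1.5-fold lower, beside 1981 of 13504 genes, and the exceptions were *Mcm4* and *Mcm6*. *Mcm7* passed by a narrow margin, at -0.590 where 1.5-fold is 0.585 on the log2 scale. With only genes of 5 FPKM or more in either column, 6 of the 10 were lower relative to the median. Rescaling to the same FPKM sum shifted the median of all genes by -0.37, and rescaling without the erythroid markers shifted it by -0.23. All 10 genes were then at least 1.5-fold lower as measured, and 8 relative to the shifted median. These rescalings also changed the split of all genes, from 1746 lower and 2550 higher to 4105 lower and 1260 higher by the full sum, or to 3033 and 1647 without the erythroid markers.

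**Figure D2:**
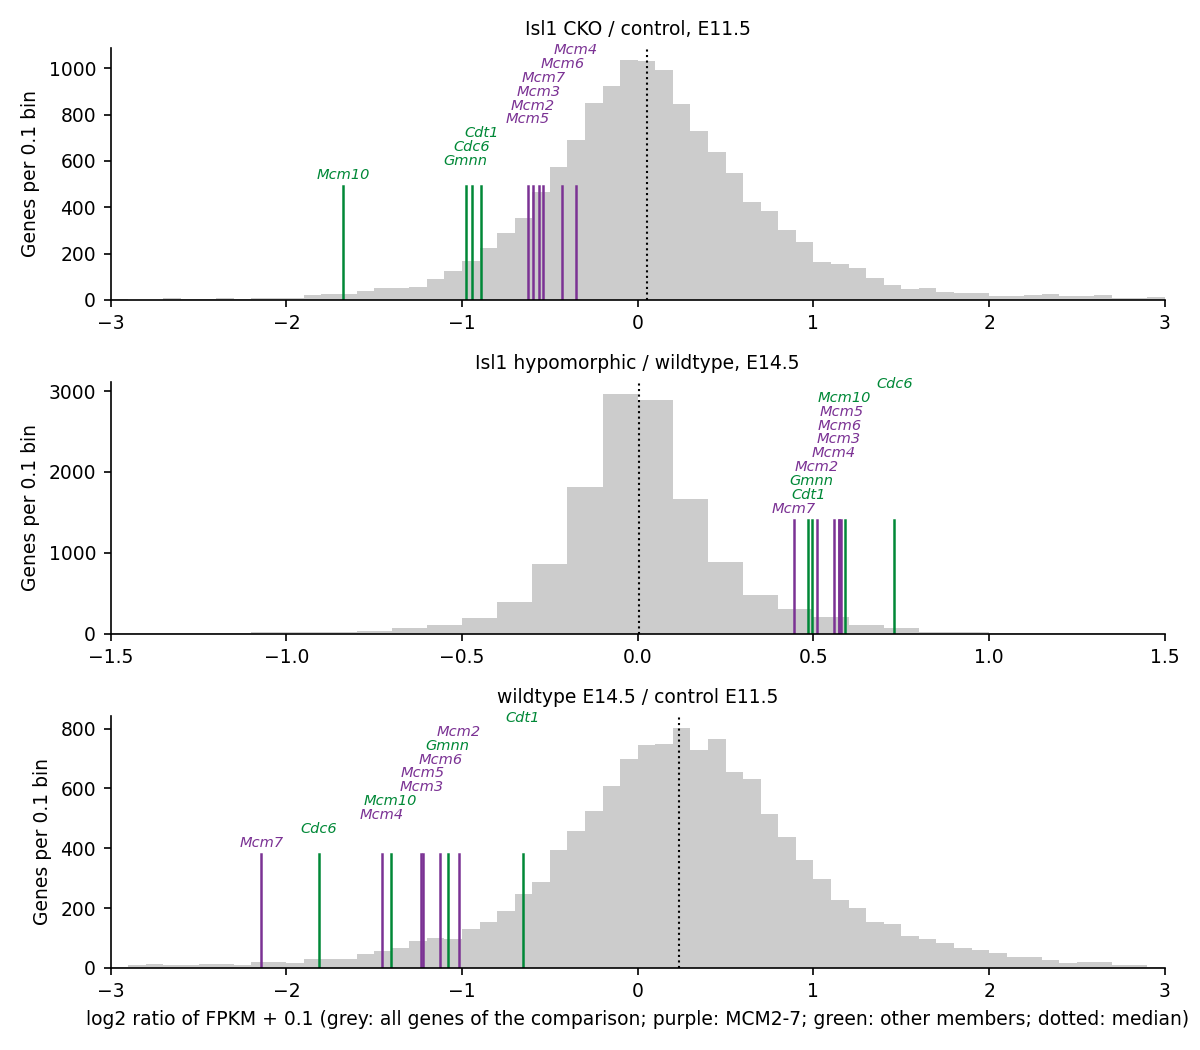
Distribution of the log2 ratio of FPKM + 0.1 over all genes of each comparison (grey, genes per bin of 0.1), with the 10 genes as vertical lines (purple for MCM2-7, green for the others) and the median of all genes dotted. The axis of the middle panel is narrower, and 288, 136 and 252 genes from top to bottom lie outside the axes. The green lines lie to the left of the purple lines at E11.5, and all 10 lie between 0.44 and 0.73 in the E14.5 mutant comparison.

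Genes of other cell types moved in the same comparison. All 9 neural crest and glia markers were at least 1.5-fold higher in CKO ganglia, with summed levels of 268 FPKM in control and 595 in CKO ganglia (median log2 ratio 1.19). All 9 mesenchyme markers were above 0 (median 0.75, summed 763 and 1300 FPKM), as were all 8 endothelial markers (median 0.47, 61.6 and 81.1 FPKM). All 7 trophoblast and yolk sac markers in the table were at least 1.5-fold higher, with sums of 8.01 and 95.0 FPKM. Of the 12 sympathetic neuron markers, 10 were below 0 (median -0.39, 3259 and 2801 FPKM). These markers include *Isl1*, the deleted gene itself, which had the lowest ratio of the list (-1.73). The part of these cells in the lower licensing values was not tested.

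Between E11.5 control and E14.5 wildtype ganglia, all 10 genes were lower at the later stage, each by at least 1.5-fold. The columns come from tables that were normalised separately and from embryos of different make-up, since the E11.5 controls carried Wnt1-Cre and the reporter, so stage cannot be told apart from these differences. The background in this comparison was 12.8% of 12666 genes lower and 29.7% higher by 1.5-fold, and 0 of the 10 genes were higher. The median of all genes was 0.24. Centring on it changed the split of all genes from 1618 lower and 3765 higher to 2471 and 2435, and left the 10 genes lower by 1.5-fold.

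*Mcm7* differed most between the stages, from 140 FPKM at E11.5 to 31.6 at E14.5, a 4.41-fold lower value (log2 ratio -2.14). It was followed by *Cdc6*, with 14.9 and 4.16 FPKM (-1.81). The other 5 helicase subunits had ratios between -1.46 (*Mcm4*, 76.1 and 27.7 FPKM) and -1.02 (*Mcm2*, 97.8 and 48.2 FPKM), with *Mcm3* at 83.9 and 35.7 FPKM, *Mcm5* at 90.8 and 38.8, and *Mcm6* at 145 and 66.4. *Mcm10* had 24.3 and 9.11 FPKM (-1.41) and *Gmnn* 49.2 and 23.2 (-1.08). *Cdt1* differed least, with 41.9 and 26.6 FPKM (-0.65), so the ratio of *Gmnn* to *Cdt1* went from 1.17 at E11.5 to 0.87 at E14.5. *Pcna*, the replication clamp, was the only one of 72 other replication genes with a lower ratio than *Mcm7* (310 and 45.7 FPKM, -2.76).

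In the make-up of the hexamer transcripts, the share of *Mcm7* differed between the stages more than between the genotypes, while that of *Mcm4* did not. *Mcm7* made up 22.1% of the summed FPKM of the 6 subunits in E11.5 control and 21.7% in CKO ganglia, and 12.7% in E14.5 wildtype and 11.9% in hypomorphic ganglia. The level of *Mcm6* was 1.04 times that of *Mcm7* in E11.5 control ganglia and 2.10 times in E14.5 wildtype ganglia. *Mcm2* took the larger share at E14.5, with 19.4% in wildtype against 15.4% in E11.5 control ganglia. The share of *Mcm4* was 12.0% in E11.5 control and 13.4% in CKO ganglia, and 11.1% in E14.5 wildtype and 11.3% in hypomorphic ganglia. *Mcm6* was the most abundant subunit in all 4 columns, at 22.9% to 27.3%. These shares are formed within a column and do not depend on its scaling. They can still depend on how reads were assigned to genes in each table. The microRNA gene *Mir25*, which lies inside *Mcm7*, had values only at E14.5 (92.0 FPKM in wildtype and 172 in hypomorphic ganglia). Its part in the lower *Mcm7* share at E14.5 was not tested.

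**Figure D3:**
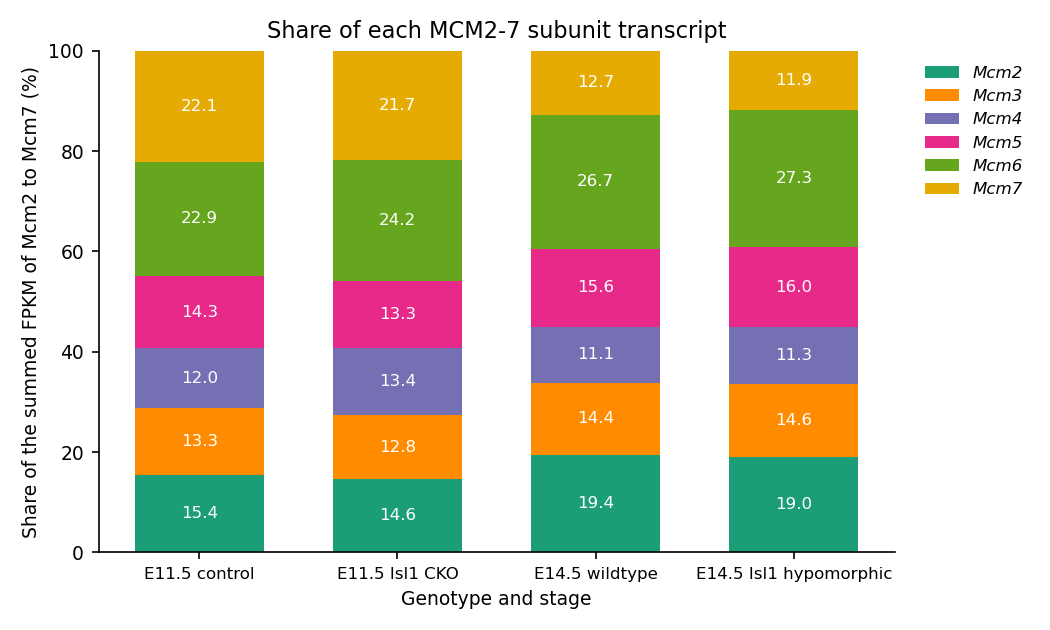
Share of each subunit in the summed FPKM of *Mcm2* to *Mcm7* (%), as stacked bars that reach 100% in each of the 4 genotype and stage columns. The *Mcm7* share is 22.1% and 21.7% at E11.5 and 12.7% and 11.9% at E14.5.

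At E14.5 the direction was opposite, and all 10 genes were higher in *Isl1* hypomorphic than in wildtype ganglia. The log2 ratios were close together, from 0.44 to 0.73, with a median of 0.57 beside 0.003 for all 13411 genes (quartiles -0.11 and 0.13). Among the ratios of all genes, the 10 lay between the percentiles 94.6 (*Mcm7*) and 98.3 (*Cdc6*). In this comparison the hexamer (median 0.57) and the other 4 genes (median 0.54) overlapped.

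*Cdc6* had the steepest difference, from 4.16 FPKM in wildtype to 6.97 in hypomorphic ganglia, 1.66-fold higher (log2 ratio 0.73), and *Mcm10* followed with 9.11 and 13.8 FPKM (0.59). *Mcm5* had 38.8 and 58.1 FPKM (0.58), *Mcm6* 66.4 and 98.9 (0.57), *Mcm3* 35.7 and 53.1 (0.57), and *Mcm4* 27.7 and 40.8 (0.56). *Mcm2* had 48.2 and 68.7 FPKM (0.51), *Gmnn* 23.2 and 32.7 (0.50), *Cdt1* 26.6 and 37.3 (0.49), and *Mcm7* 31.6 and 43.0 (0.44). The ratio of *Gmnn* to *Cdt1* was 0.87 in wildtype and 0.88 in hypomorphic ganglia. The order of the 10 genes by level was the same in both genotypes.

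Only *Cdc6* and *Mcm10* reached 1.5-fold, which makes 2 of 10 genes higher and 0 lower, beside 2.89% of all genes higher and 2.12% lower. The count rests on a narrow margin, since *Mcm5*, *Mcm6*, and *Mcm3* were each 1.49-fold higher and *Mcm4* was 1.47-fold higher. All 10 hypomorphic values lay between that of E14.5 wildtype and that of E11.5 control ganglia. CKO ganglia of E11.5 had higher values than E14.5 wildtype ganglia for 8 of the 10 genes, and the exceptions were *Cdt1* and *Mcm10*. Both statements follow from the ratios already given and cross tables that were normalised separately. The share of all genes was not counted for either.

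Of the 12727 genes in both tables, 23.7% were below 0 in CKO against control ganglia and above 0 in hypomorphic against wildtype ganglia, as were all 10 licensing genes. These comparisons share no column.

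Markers of other cells were also higher at E14.5, by smaller ratios for most lists than at E11.5. All 8 endothelial markers were above 0 in hypomorphic ganglia. Their log2 ratios ran from 0.25 to 0.63 around a median of 0.48, with sums of 78.6 FPKM in wildtype and 111 in hypomorphic ganglia, and overlap with those of the licensing genes. Of the 13 erythroid markers in the table, 12 were above 0 (median 0.50, sums of 5637 and 6852 FPKM). All 9 mesenchyme markers had ratios between 0.13 and 0.44. The neural crest and glia markers ranged from -0.15 to 0.34, with sums of 457 and 523 FPKM, and the 4 trophoblast and yolk sac markers in the table from 0.32 to 0.59. Of the 12 sympathetic neuron markers, 8 were below 0 and 4 above (median -0.18, sums of 5481 and 4538 FPKM), and 2 were at least 1.5-fold lower. These 2 were *Isl1*, the mutated gene itself (-0.96), and *Phox2a*. *Phox2a* had 553 and 360 FPKM (-0.62), and *Hand2* 474 and 492 (0.05). The part of these cells in the higher licensing values was not tested.

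The rest of the replication machinery was described by 7 lists with 73 genes. In CKO ganglia, 39 of the 73 were at least 1.5-fold lower and 1 was higher, with 65 below 0 and a median of -0.63. In hypomorphic ganglia, 8 of 72 were at least 1.5-fold higher and 0 lower, with 64 above 0 and a median of 0.42. Of these genes, 12 in CKO and 24 in hypomorphic ganglia had ratios within the range of the hexamer subunits.

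The origin recognition complex, which marks origins throughout the cell cycle, differed less by its median than the helicase it loads. Its 6 genes had a median of -0.26 in CKO and 0.16 in hypomorphic ganglia. The counts did not differ at E11.5, since 2 of its 6 genes and 2 of the 6 helicase subunits were at least 1.5-fold lower. *Orc1* and *Orc6* had lower ratios than every subunit. *Orc1*, the subunit whose level varies with the cell cycle, had the largest differences of the 6, with 4.49 and 2.47 FPKM at E11.5 (-0.84) and 1.91 and 2.83 at E14.5 (0.54). *Orc6* was the most abundant, with 44.1 and 28.4 FPKM at E11.5 (-0.64), and *Orc3* had 20.6 and 18.7 (-0.13). The MCM relatives and partners that are not part of the hexamer had ratios from -0.59 to 0.19 at E11.5, which overlapped with those of the hexamer. *Mcm8*, a helicase of recombination, had 9.21 and 6.09 FPKM at E11.5 (-0.59) and 4.57 and 6.28 at E14.5 (0.45), and *Mcm9* had 3.21 and 2.33 (-0.45) and 2.91 and 3.55 (0.28). *Mcmbp*, which encodes a protein that binds MCM subunits, had 42.0 and 30.8 FPKM at E11.5 (-0.44) and 32.6 and 34.3 at E14.5 (0.07).

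The genes that turn the loaded ring into an active helicase had a median between those of the hexamer and of the other 4 licensing genes at E11.5. Of 13 such genes, 11 were at least 1.5-fold lower in CKO ganglia (median -0.81), and all 13 were above 0 in hypomorphic ganglia (median 0.47). *Cdc45*, a partner of MCM2-7 in the active helicase, had 33.2 and 16.3 FPKM at E11.5 (-1.02), and *Recql4* had the lowest ratio of the list (4.89 and 2.11 FPKM, -1.18). The GINS subunits, the other partners, were uneven, from *Gins1* with 35.4 and 20.2 FPKM (-0.81) to *Gins4* with 36.2 and 36.0 FPKM (-0.01). *Dbf4*, the regulatory subunit of the kinase that phosphorylates the MCM ring, had 31.5 and 17.9 FPKM (-0.81), and *Topbp1*, the most abundant of the list, had 46.9 and 23.8 (-0.97).

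Further along the fork, 13 of 17 clamp, clamp loader, RPA, and fork genes (median -0.77) and 5 of 12 polymerase and primase genes (median -0.48) were at least 1.5-fold lower in CKO ganglia. *Pcna* had 310 and 196 FPKM (-0.66) and *Rpa1* 49.4 and 47.8 (-0.05). *Pold4*, a small subunit of polymerase delta, was the gene on these lists that was at least 1.5-fold higher (4.60 and 7.59 FPKM, 0.71). At E14.5 the largest ratios were those of the chromatin assembly gene *Chaf1b* (14.7 and 24.8 FPKM, 0.75) and of *Clspn* (8.85 and 14.8 FPKM, 0.74). Of the 8 nucleotide supply genes, 4 were at least 1.5-fold lower in CKO ganglia, and *Rrm2*, a subunit of ribonucleotide reductase, had 192 and 77.0 FPKM (-1.32).

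The 12 genes listed for the turnover of CDT1 and other licensing factors did not share a direction at E11.5, with 7 below 0 and 5 above. The list is mixed, since it also holds an inhibitor of breakdown (*Fbxo5*) and a cyclin gene (*Ccna2*). The CRL4 ubiquitin ligase that destroys CDT1 in S phase is built on *Ddb1* and *Cul4a* or *Cul4b*, with *Dtl* as the substrate receptor. *Dtl* had 26.7 and 15.3 FPKM at E11.5 (-0.80) and 12.9 and 19.5 at E14.5 (0.59), and *Ddb1* had 246 and 337 (0.45) and 247 and 230 (-0.11). *Skp2*, whose product also targets CDT1, had 29.5 and 32.6 FPKM at E11.5 (0.15) and 12.1 and 15.2 at E14.5 (0.33). *Fbxo5*, which encodes an inhibitor of the anaphase-promoting complex, had the lowest ratio of the list in CKO (37.6 and 18.3 FPKM, -1.04) and the highest in hypomorphic ganglia (15.5 and 23.9 FPKM, 0.62). Over the 12 genes the medians were -0.15 and 0.18.

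Of 6 proliferation markers, 4 were at least 1.5-fold lower in CKO ganglia (median -0.77). *Mki67* had a ratio of -1.77 (97.2 and 28.5 FPKM), which is close to that of *Mcm10* and lower than that of every hexamer subunit. In hypomorphic ganglia the 6 markers had ratios between 0.41 and 0.61. Of 9 genes of cell cycle exit, 4 were at least 1.5-fold higher and 1 lower in CKO ganglia, beside 18.9% and 12.9% of all genes. The list was split, with 5 above 0 and 4 below (median 0.26). The largest ratio was that of *Cdkn1c*, which encodes the CDK inhibitor p57 (340 and 766 FPKM, 1.17), while *Cdkn1b* had 36.2 and 22.3 FPKM (-0.70). In hypomorphic ganglia 0 of the 9 were 1.5-fold higher and 0 lower.

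**Figure D4:**
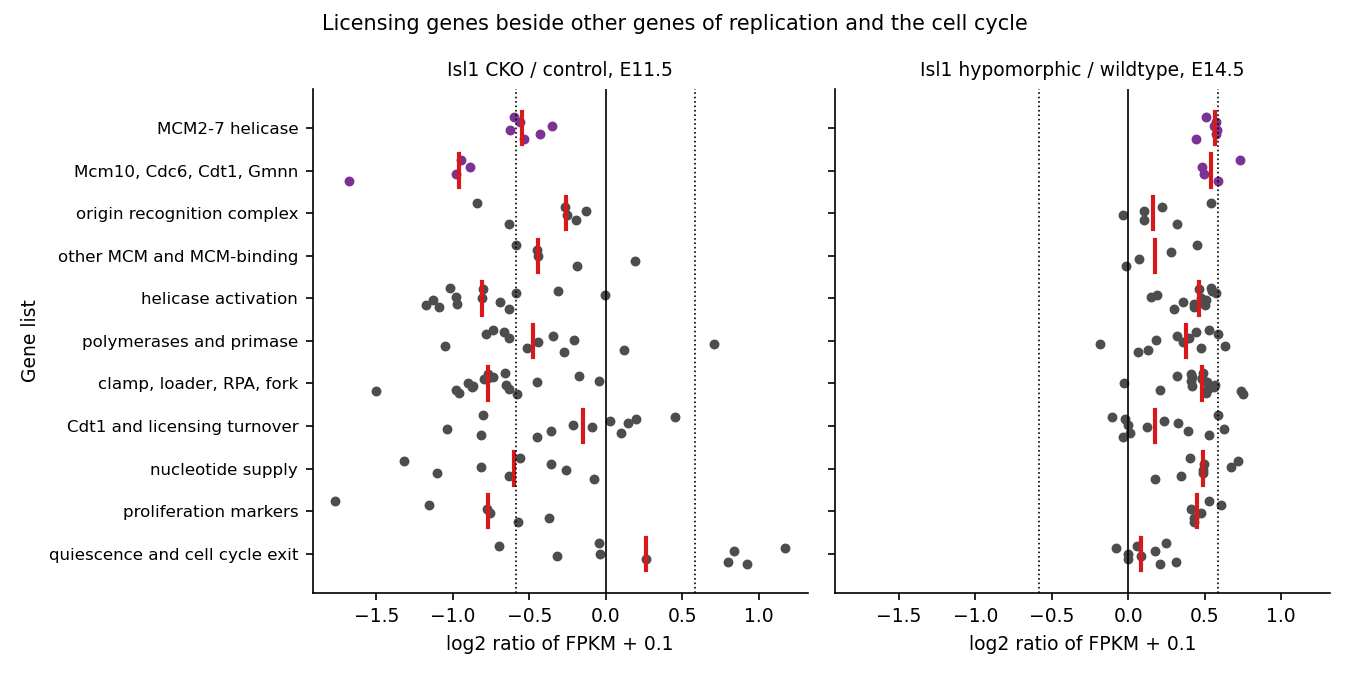
Log2 ratio of FPKM + 0.1 for each gene (points) of the licensing genes (purple) and of 9 other lists (grey), with the median of a list as a red bar and 1.5-fold as dotted lines. At E11.5 the helicase median is -0.55 and that of *Mcm10*, *Cdc6*, *Cdt1*, and *Gmnn* is -0.96, and at E14.5 these medians are 0.57 and 0.54.

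Some of the genes lie head to head with a neighbour, which gives a comparison the choice of genes did not use. *Mcm4* and *Prkdc*, which encodes the catalytic subunit of the DNA-dependent protein kinase, start 466 bases apart on opposite strands in mm9. *Mcm4* ranged from 27.7 to 76.1 FPKM over the 4 columns, while *Prkdc* was at 3.55 FPKM in controls and 3.25 in the CKO, and 3.15 in wildtype and 3.31 in hypomorphic ganglia. *Ap4m1*, a gene of vesicle transport, starts inside *Mcm7* and overlaps it by 421 bases. It had 10.0 and 8.28 FPKM at E11.5 and 20.4 and 19.0 at E14.5, so that it was higher at the later stage (log2 ratio 1.01), at which *Mcm7* was lower. *Cops6* overlaps the other end of *Mcm7* by 64 bases and had 89.9 and 156 FPKM at E11.5 and 99.3 and 106 at E14.5. The library kit is not stated to mark strand, so reads in the overlaps cannot be assigned to one gene with certainty. Of the 3 microRNA genes inside *Mcm7* (*Mir25*, *Mir93*, and *Mir106b*), only *Mir25* was listed, and only at E14.5, with 92.0 FPKM in wildtype and 172 in hypomorphic ganglia for a gene of 84 bases. *Mir25* is shorter than the reads, which came from polyA RNA, and lies on the same strand as *Mcm7*. Its values therefore cannot be told apart from reads of *Mcm7* transcripts and are not a level of the microRNA.

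**Figure D5:**
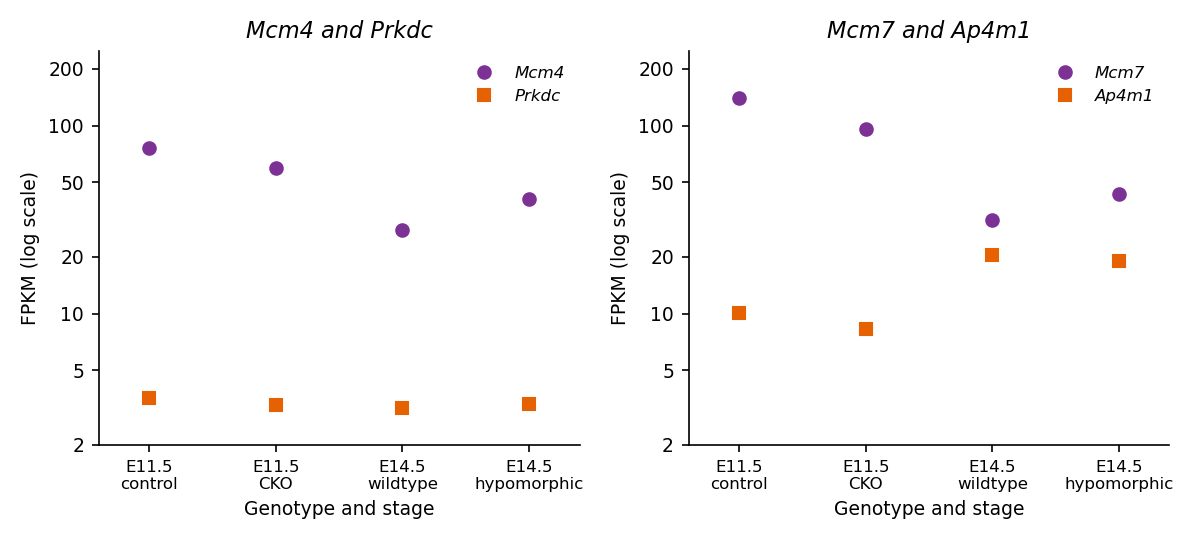
FPKM (log scale) of *Mcm4* with *Prkdc* and of *Mcm7* with *Ap4m1*, which start on opposite strands, in the 4 columns with 1 value each. *Prkdc* stays between 3.15 and 3.55 FPKM while *Mcm4* ranges from 27.7 to 76.1, and *Ap4m1* is higher at E14.5 where *Mcm7* is lower.

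The genes whose levels over the 4 columns were most like the mean of the 10 were found among 10756 others by the root mean square difference of centred log2 values. Among the closest were *Cenpk* (difference 0.02), *Dbf4* (0.03), *Eme1* and *Ccna2* (both 0.04), and *Dna2*, *Nek2*, *Shcbp1*, *Cenpq*, and *Ube2c* (each 0.05). *Cenpk*, a kinetochore gene, had 18.2 FPKM in control, 10.5 in CKO, 7.30 in wildtype, and 10.4 in hypomorphic ganglia. Of the 10 licensing genes, *Mcm5* was closest to their own mean (0.05) and *Mcm7* farthest (0.50). The order was found over 4 values a gene, without replicates, and is a description.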

How the data were processed

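PolyA RNA of pooled ganglia was sequenced from both ends in 8 libraries, 2 per genotype and stage. According to the methods, TopHat was used for alignment to mm9, and uniquely mapped reads went into cuffdiff. The submitters' processing notes name Bowtie, TopHat 1.3.1, Cuffdiff 1.3.0, and a fly build, dm3, and differ in this from the methods. The authors deposited FPKM values from cuffdiff, 1 per gene and genotype for 2 libraries together, and kept genes that reached 1 FPKM in at least 1 genotype. The tables also hold the authors' log2 fold changes and p-values, which were not used.

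For each gene, 0.1 was added to both FPKM values before the log2 ratio was taken, which understates changes of low genes, and ratios of 1.5-fold or more were counted. The symbol carried by 2 rows of each table was left out. No test was possible, since no value per library is given. Members and lists were chosen with earlier results of these data known. Genes named were the members, the highest, lowest, and most abundant of each list, neighbours within 1000 bases, and those most alike among the first 10, with some genes not reported here. Others (*Hbb-y*, *Cdc45*, *Gins1*, *Gins4*, *Dbf4*, *Dtl*, *Cdkn1b*, *Skp2*, *Mcm9*, and the markers) were chosen after their values were seen. Positions are those of GENCODE M1 (NCBIM37, the same assembly as mm9), and promoter sequences are from RefSeq (GRCm38.p6). The log2 ratio with its 1.5-fold call and the word search were tested on simulated data, and the other steps were not. Python 3.11.15, numpy 2.4.6, pandas 2.3.3, and matplotlib 3.10.9 were used. Alternatives were other pseudocounts, filters, scalings, and fold thresholds.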

Additional observations from a re-analysis of the deposited data

Results flagged for a closer look

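All 10 genes were flagged because the change in the *Isl1* mutant lay on opposite sides of 0 at the 2 stages. The log2 ratio at E14.5 minus that at E11.5 was 2.27 for *Mcm10*, 1.68 for *Cdc6*, 1.47 for *Gmnn*, and 1.38 for *Cdt1*. For the helicase subunits it was 1.21 for *Mcm5*, 1.14 for *Mcm3*, 1.11 for *Mcm2*, 1.002 for *Mcm6*, 0.98 for *Mcm7*, and 0.91 for *Mcm4*. The difference was not tested. The stages were also studied with different alleles, a neural crest deletion at E11.5 and a hypomorphic allele at E14.5, so stage and allele cannot be told apart.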

How the results depend on the processing

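No paired analysis was possible because the deposited values combine the 2 libraries of a genotype, and for the same reason no library could be left out. A log2 value counted as moved past 1.2-fold and a count past 1.5 times. The count of genes lower in CKO ganglia, 6 of 10, became 10 with the same FPKM sum in each column, 10 with that sum taken without the erythroid markers, 1 at a fold threshold of 2, and 10 at 1.2. The median of the 10 genes moved from -0.61 to -0.98 with the same FPKM sum. The count of genes higher in hypomorphic ganglia, 2 of 10, became 1 with a pseudocount of 1, 5 with the same FPKM sum, 6 with that sum taken without the erythroid markers, 1 with the same upper quartile, 0 at a fold threshold of 2, and 10 at 1.2. Of all 13411 genes, 387 were higher in hypomorphic ganglia in the main setting and 217 with a pseudocount of 1. They numbered 435 with the same FPKM sum, 444 with that sum taken without the erythroid markers, and 369 with the same upper quartile. All genes were not counted at fold thresholds of 2 and 1.2, so the counts at these thresholds have no background. The count between the wildtype stages stayed at 9 or 10 under the other scalings and pseudocounts. Of 240 values of single genes under the alternatives, 230 moved by less than 1.2-fold, and 0 changed sign. The 10 others were the CKO values with the same FPKM sum. The other filters only changed which genes were kept, so the 30 values under each of them could not move and say nothing on stability. All 56 values of the subunit shares and of the *Gmnn* to *Cdt1* ratio moved by less than 1.2-fold with a pseudocount of 1 or 0.01. These genes were at 22.6 FPKM or more in every column, so such pseudocounts could hardly move them and the check says little. The low levels of *Cdc6* and *Mcm10* are the least certain, because depth is unknown.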
